A study of Sus scrofa with 6 samples.

Results

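The genes described here carry glucose into the cell, break it down to pyruvate, turn pyruvate into lactate and export it, or hold the gates to the mitochondrion, to glycogen and to the pentose phosphate route. They were taken as a fixed list of 39 symbols in the pig (Sus scrofa). Of these, 36 matched a row among the 35670 genes counted, and all 36 passed the filter on low counts that left 17920 genes in the test. SLC2A3, SLC16A1 and PGM1 had no row under their symbol and were not analysed here.

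Messenger RNA was counted in the ampulla, the part of the oviduct where sperm meet the oocyte. The post-ovulatory group held 3 libraries from the stage after ovulation and the early luteal group held 3 from the stage when the corpora lutea form; the labels give no breed, age, animal or treatment for either. The extraction protocol names ampulla tissue, while the cell subtype label names ampullary cells; markers of ciliated, secretory, stromal, smooth muscle and endothelial cells were all counted. No source says that replicates came from separate animals, so the p-values measure the spread between these libraries, which may be technical.

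Glucose enters most cells through SLC2A carriers and is trapped by hexokinase. Glycolysis yields pyruvate, which lactate dehydrogenase can reduce to lactate for export by SLC16A carriers, or which pyruvate dehydrogenase passes into the citric acid cycle unless pyruvate dehydrogenase kinases switch that enzyme off. In the oviduct these steps matter beyond the tissue itself, since the early embryo draws on pyruvate and lactate of the tubal fluid before it uses much glucose.

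Library totals ran from 7370723 to 30954222 counts, and 3 counts, the floor of a library, stood for 0.0959 to 0.406 CPM (CPM is the count relative to the TMM-scaled library total). Early luteal replicate 2 stood apart from the rest, with a Pearson correlation across genes of 0.802 to 0.865 with the other 5 libraries, which correlated with each other at 0.882 to 0.945. It held the lowest level of 21 of the 36 members (58.3%), against 39.2% of all genes tested. It also had the fewest genes detected, 21658 against 23373 to 26524 in the others. The summed level of 9 mitochondrial genes was highest there, at 83554 CPM against 33438 to 73970 CPM. The part of RNA quality in the levels of this library was not tested. Ciliated cell markers had a summed level of 1384 to 2657 CPM in post-ovulatory and 2003 to 2544 CPM in early luteal libraries. Secretory cell markers, led by OVGP1 (oviductin), ran from 1414 to 12288 CPM in post-ovulatory and from 2167 to 3987 CPM in early luteal libraries. OVGP1 alone stood at 7302, 156 and 10688 CPM in post-ovulatory and 292, 1017 and 2356 CPM in early luteal replicates. Of the 5 tested secretory markers it was the 1 lower in early luteal tissue (log2 fold change -2.31). The other 4 were higher, and 0 of the 5 separated the stages. Smooth muscle markers ranged from 3858 to 7289.6 CPM in post-ovulatory and from 1655 to 12492 CPM in early luteal libraries.

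The clearest difference lay at the gate between glycolysis and the mitochondrion: PDK4, a kinase that switches pyruvate dehydrogenase off, stood 2.58-fold higher in early luteal ampulla. PDK1, a kinase of the same family, and the glucose carrier SLC2A12 also stood higher in every early luteal library, while ENO1, PKM and PFKP of glycolysis and PGD of the pentose phosphate route stood lower in every one. By edgeR (quasi-likelihood, Benjamini-Hochberg over all genes tested) 0 members had an adjusted p at or under 0.05, and 0 of the 17920 genes did (0%). Limma voom gave 0 of the same 17920 genes. DESeq2, which tested 29972 genes, called 177, PDK4 among them. At an unadjusted p under 0.05 there were 5 members, 13.9% of 36 against 7.11% of all genes tested. PDK4, SLC2A12 and PDK1 were the 3 higher ones, beside 3.57% of all genes higher, and ENO1 and TPI1 the 2 lower ones, beside 3.54% of all genes lower. All 3 libraries of one stage lay above all 3 of the other in 8 members (22.2%), against 17.2% of all genes. Of these 8, 4 were higher in early luteal tissue (7.61% of all genes) and 4 lower (9.57% of all genes). The median log2 fold change of the 36 members, early luteal over post-ovulatory, was -0.12, beside -0.026 over all genes tested. In whole tissue, fewer cells of a type and less RNA per cell cannot be told apart.

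**Figure D1:**
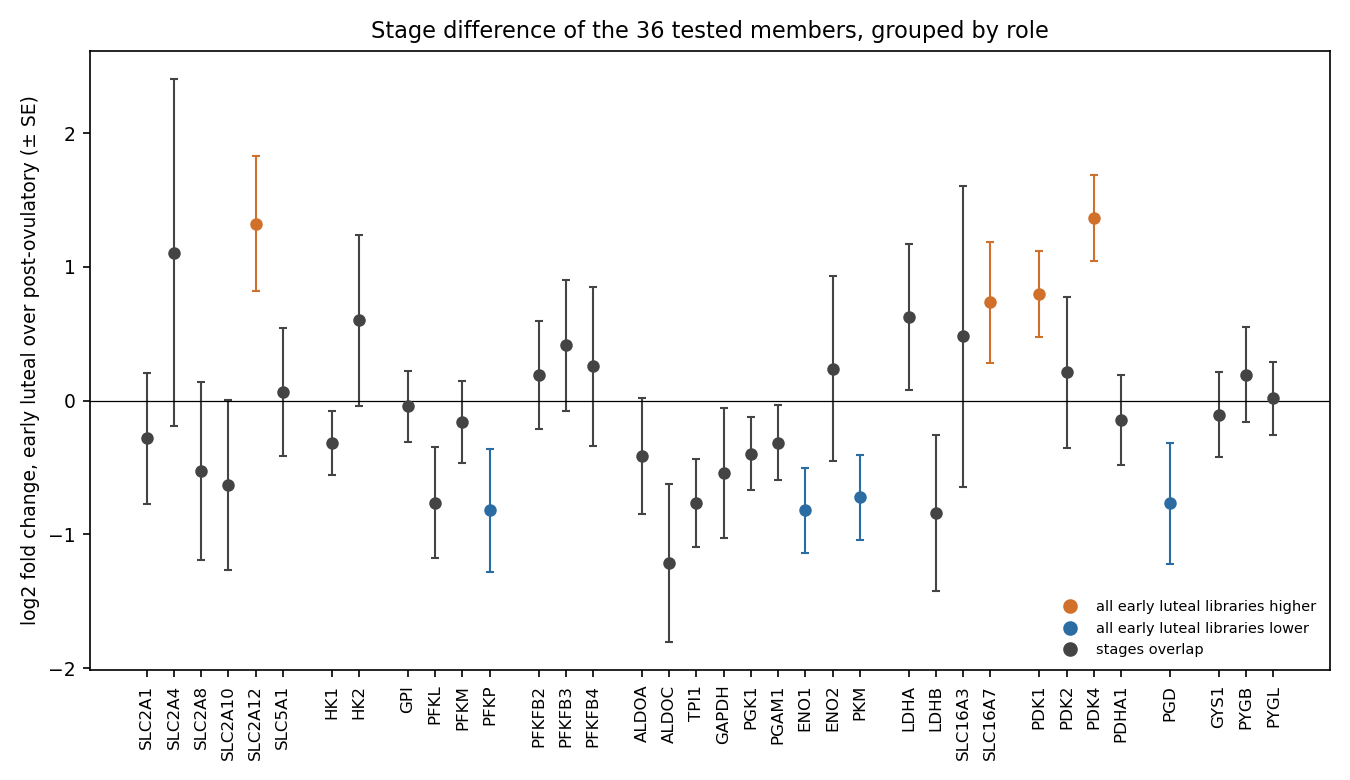
Log2 fold change of each of the 36 tested members, early luteal over post-ovulatory, with its SE from edgeR, grouped by role from carriers at the left to glycogen enzymes at the right. Orange and blue points are the 4 and 4 genes in which the libraries of the stages do not overlap; PDK4 has the highest value, 1.37, and ALDOC the lowest, -1.21.

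The counts of members rested on few libraries. At an unadjusted p under 0.05 there were 2 members when post-ovulatory replicate 1 was left out, where 3.22% of all genes were, and 2 when early luteal replicate 2 was, where 8.33% of all genes were. Leaving out post-ovulatory replicate 3 gave 1 member, against 4.98% of all genes, and leaving out early luteal replicate 3 gave 3, against 5.32%. Without early luteal replicate 2 and without post-ovulatory replicate 3 the members' share thus lay below that of all genes. PDK4 was among them each time. Without early luteal replicate 2 the stages did not overlap in 17 of 36 members, 9 higher and 8 lower, but neither did they in 28.8% of all genes, since 2 libraries are more easily separated from 3. Without early luteal replicate 3 the count was 15, against 25.6% of all genes.

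PDK4 lies on chromosome 9, bases 75246956 to 75260134 (RefSeq annotation of Sscrofa11.1). Its level was 87.6, 156 and 136 CPM in post-ovulatory replicates 1, 2 and 3 and 253, 414 and 310.1 CPM in early luteal replicates 1, 2 and 3. The stages were far apart, as the lowest early luteal library exceeded the highest post-ovulatory one by more than the range of the post-ovulatory libraries. The means were 126 ± 35.2 and 326 ± 81.8 CPM (SD, n = 3), a log2 fold change of 1.37 ± 0.32 (SE), with an unadjusted p of 0.00258 and an adjusted p of 0.568 (edgeR). DESeq2 called PDK4, with an adjusted p of 0.0253, and no other member. Over all alternatives the adjusted p of PDK4 ran from 0.0253 to 0.985, and its log2 fold change lay between 1.14 and 1.54 with any library left out.

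The 3 kinases among the members had different patterns. PDK1, which hypoxia induces in many cells, stood at 31.9, 27.2 and 30.1 CPM in post-ovulatory and 34.2, 72.1 and 48.9 CPM in early luteal replicates, so that early luteal replicate 1 only just cleared the post-ovulatory libraries and replicate 2 was far above them. Its log2 fold change was 0.80 ± 0.32 (SE; edgeR, unadjusted p = 0.0375), and 0.48 without early luteal replicate 2. PDK2, the kinase found in most tissues, stood at 17.0, 21.5 and 18.8 against 20.8, 6.50 and 38.7 CPM, with the early luteal libraries on both sides of the post-ovulatory ones. Without early luteal replicate 3 its log2 fold change turned from 0.21 to -0.48.

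The enzyme that the kinases act on is built from several subunits. PDHA1, the subunit that the kinases phosphorylate, stood at 186, 108 and 104 against 85.2, 153 and 122 CPM and overlapped between the stages. PDHB, its partner in the first enzyme of the complex and not a member, stood at 114, 73.1 and 91.5 against 54.4, 50.5 and 46.1 CPM, lower in every early luteal library (log2 fold change -0.88 ± 0.26, SE; edgeR, unadjusted p = 0.00853, adjusted p = 0.649). PDHB was 1 of 8 other genes of this complex and its regulators. The remaining 7, among them DLAT, DLD and PDHX, overlapped between the stages. Separate stages in 1 of 8 are 12.5%, below the 17.2% of all genes. PDHB was also the 1 with an unadjusted p under 0.05 in edgeR (12.5%, against 7.11%).

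**Figure D2:**
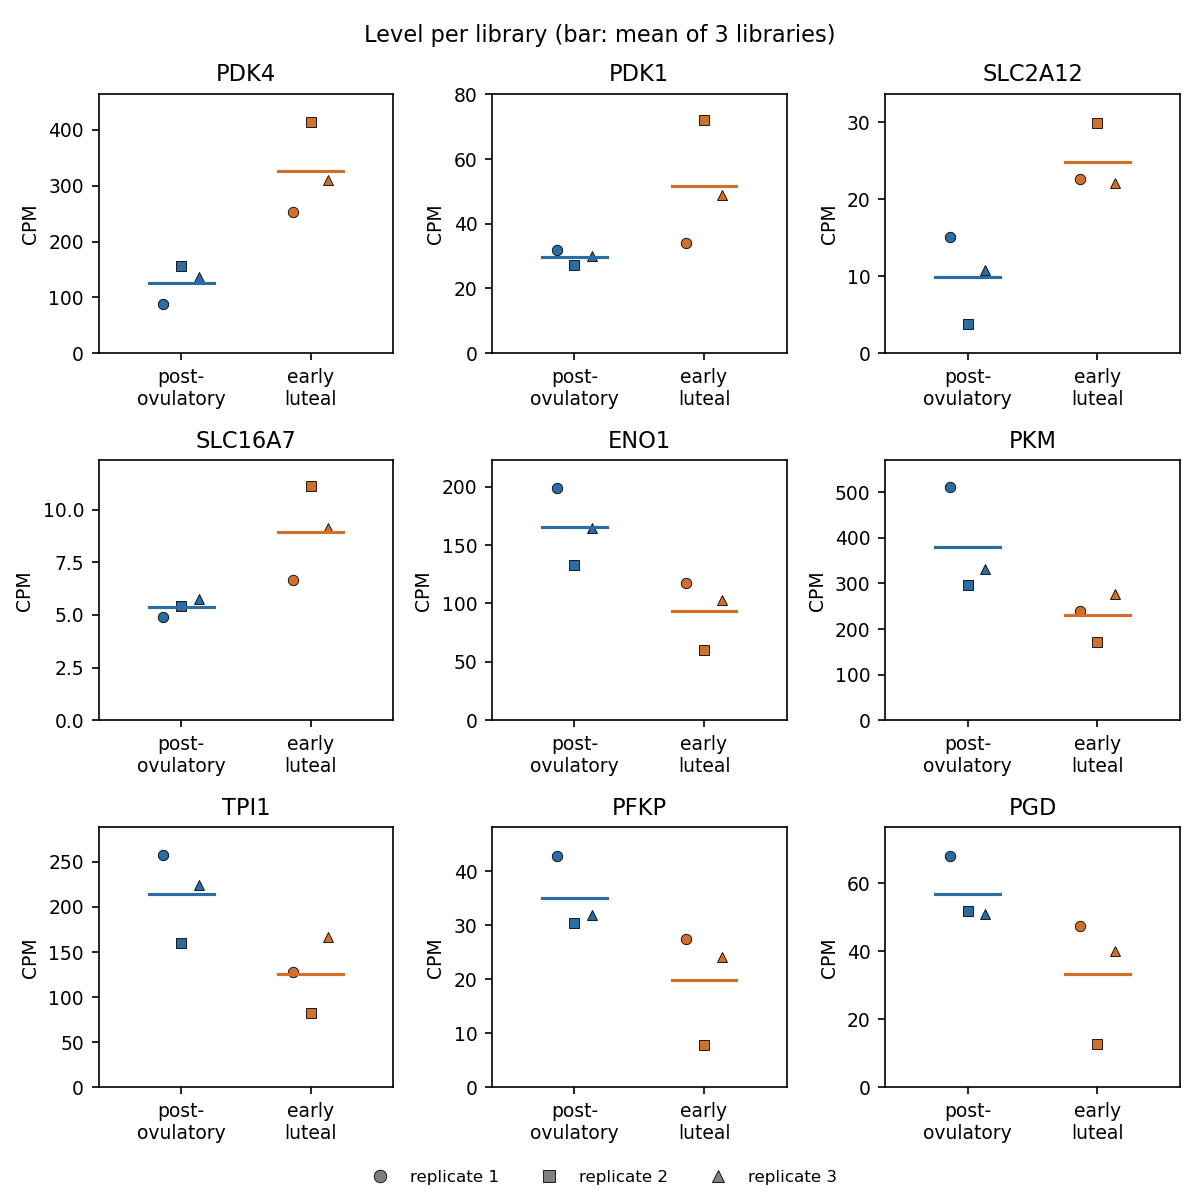
CPM in each library for 9 members, with a vertical axis from 0, post-ovulatory libraries in blue, early luteal libraries in orange and a bar at the mean of 3. In the 4 genes PDK4, PDK1, SLC2A12 and SLC16A7 every orange point lies above every blue one; in ENO1, PKM, PFKP and PGD every one lies below, and in TPI1 early luteal replicate 3 lies just above post-ovulatory replicate 2.

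Among glucose carriers SLC2A1, which serves basal uptake in most cells, was the most counted of the 6 measured. It stood at 95.5, 44.7 and 80.7 CPM in post-ovulatory and 71.9, 23.0 and 86.8 CPM in early luteal replicates and overlapped between the stages; its log2 fold change of -0.28 ± 0.49 (SE) turned to 0.10 without early luteal replicate 2, the lowest library. SLC2A12, another carrier of the SLC2A family, lies on chromosome 1, bases 29835964 to 29901996. It stood at 15.0, 3.79 and 10.8 CPM in post-ovulatory and 22.6, 29.9 and 22.1 CPM in early luteal replicates, which rested on 202, 30 and 337 and on 351, 221 and 332 counts. The early luteal libraries lay close together and above all others, while post-ovulatory replicate 2 was far below its own stage. The log2 fold change was 1.32 ± 0.50 (SE; edgeR, unadjusted p = 0.0291, adjusted p = 0.685), and 0.94 without post-ovulatory replicate 2.

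The other carriers were low and did not separate the stages. SLC5A1, which couples glucose uptake to sodium, stood at 4.39, 4.67 and 4.41 against 4.90, 4.06 and 5.12 CPM (log2 fold change 0.066 ± 0.48, SE). SLC2A10 stood at 12.1, 9.09 and 21.0 against 11.3, 2.44 and 13.3 CPM and SLC2A8, a carrier of internal membranes, at 3.05, 1.89 and 1.63 against 1.42, 0.813 and 2.26 CPM; in both, early luteal replicate 2 was lowest. SLC2A4, the insulin-regulated carrier of muscle and fat, had 1, 7 and 4 counts in the post-ovulatory libraries against 15, 0 and 15 in the early luteal ones. In post-ovulatory replicate 1 and early luteal replicate 2 it was below the floor of 3 counts, so its difference was not detectable at this depth.

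Hexokinase traps glucose as its phosphate. HK1, the broadly expressed form, stood at 131, 107 and 148 against 103, 107 and 100.4 CPM, with early luteal libraries tightly grouped near the lowest post-ovulatory one (log2 fold change -0.31 ± 0.24, SE). HK2, the inducible form, was measured at 3.28, 3.03 and 1.41 against 3.74, 5.83 and 2.13 CPM and overlapped. Its share of HK1 and HK2 counts was 2.43%, 2.76% and 0.940% in the post-ovulatory libraries against 3.49%, 5.16% and 2.08% in the early luteal ones, where the stages overlapped.

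Phosphofructokinase commits sugar to glycolysis, and of its 3 isozyme genes only PFKP separated the stages. PFKP, the platelet form, stood at 42.8, 30.4 and 31.9 CPM in post-ovulatory and 27.4, 7.86 and 24.1 CPM in early luteal replicates (log2 fold change -0.82 ± 0.46, SE; edgeR, unadjusted p = 0.111). Every early luteal library was lower, though replicates 1 and 3 lay near post-ovulatory replicates 2 and 3, and replicate 2 was much lower than either. PFKL, the liver form, stood at 77.4, 40.5 and 70.2 against 48.2, 18.4 and 44.1 CPM and PFKM, the muscle form, at 26.8, 21.2 and 21.1 against 17.8, 23.4 and 20.6 CPM. PFKM made up 18.2%, 23.0% and 17.1% of the counts of the 3 genes in the post-ovulatory libraries against 19.1%, 47.1% and 23.2% in the early luteal ones, so that early luteal replicate 2 alone had a different make-up. GPI, the isomerase one step earlier, overlapped at 126, 99.4 and 117 against 103, 88.7 and 141 CPM.

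The PFKFB genes set the level of fructose 2,6-bisphosphate, the strongest activator of phosphofructokinase. All 3 measured forms overlapped between the stages. PFKFB4 stood at 8.93, 21.1 and 23.1 against 29.0, 6.50 and 27.7 CPM and was low in 1 library of each stage. PFKFB3, the form with the highest kinase activity, stood at 5.29, 5.18 and 4.60 against 4.32, 8.40 and 7.38 CPM, and PFKFB2 at 10.3, 12.1 and 10.5 against 15.1, 8.13 and 14.2 CPM.

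The enzymes from aldolase to pyruvate kinase were lower in early luteal tissue in 8 of 9 genes by their log2 fold change, with a median of -0.54; over all genes tested 51.8% were lower. Of the 9, 2 had an unadjusted p under 0.05 (22.2%, against 7.11% of all genes) and 2 separated the stages (22.2%, against 17.2%). With each library left out in turn, 8 or 9 of the 9 were lower.

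ENO1, the enolase of most tissues, lies on chromosome 6, bases 69385879 to 69401664 and stood at 199, 133 and 165 CPM in post-ovulatory and 117, 60.0 and 103 CPM in early luteal replicates. The stages did not overlap, although early luteal replicate 1 came near post-ovulatory replicate 2. Its means were 165 ± 33.2 and 93.6 ± 29.9 CPM (SD, n = 3), a log2 fold change of -0.82 ± 0.32 (SE; edgeR, unadjusted p = 0.0318, adjusted p = 0.685).

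PKM, the pyruvate kinase that makes pyruvate at the last step, lies on chromosome 7, bases 60971807 to 61032780 and stood at 511, 297 and 333 against 241, 173 and 277 CPM. Here too every early luteal library was lower, by a small margin between early luteal replicate 3 and post-ovulatory replicate 2. The log2 fold change was -0.72 ± 0.32 (SE; edgeR, unadjusted p = 0.0513) and became -0.46 without post-ovulatory replicate 1, the highest library. TPI1, triose phosphate isomerase, stood at 258, 160.0 and 225 against 128, 82.8 and 167 CPM, with early luteal replicate 3 just above post-ovulatory replicate 2 (log2 fold change -0.77 ± 0.33, SE; edgeR, unadjusted p = 0.0484, adjusted p = 0.685).

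The rest of lower glycolysis overlapped. GAPDH, often used as a reference gene, varied widely within each stage, at 791, 425 and 429.8 CPM in post-ovulatory and 346, 165 and 621 CPM in early luteal replicates. Its log2 fold change of -0.54 ± 0.49 (SE) was -0.19 without early luteal replicate 2 and also -0.19 when post-ovulatory replicate 1 was left out, and it was -1.11 when early luteal replicate 3 was. ALDOA, the main aldolase, stood at 388, 296 and 359 against 321, 105 and 356 CPM, and only early luteal replicate 2 lay below the range of the post-ovulatory libraries. PGK1 and PGAM1, the next enzymes, stood at 143, 93.8 and 93.9 against 81.3, 97.8 and 72.5 CPM and at 251, 159 and 171 against 137, 147 and 184 CPM. GAPDH, PGK1, TPI1 and ENO1 have processed copies in mammalian genomes, and how the counting treated reads shared with such copies is not given in the sources used here.

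ALDOC and ENO2, forms best known from neurons, varied widely between libraries. ALDOC stood at 25.6, 24.0 and 52.5 against 7.66, 7.86 and 28.4 CPM, with early luteal replicates 1 and 2 well below the other 4 libraries (log2 fold change -1.21 ± 0.59, SE; edgeR, unadjusted p = 0.0722). ENO2 stood at 29.0, 30.8 and 63.8 against 87.3, 8.81 and 49.7 CPM and was both highest and lowest in early luteal libraries. Its share of ENO1 and ENO2 counts ran from 12.8% in early luteal replicate 2 to 42.6% in early luteal replicate 1, and without the latter its log2 fold change turned from 0.24 to -0.49.

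**Figure D3:**
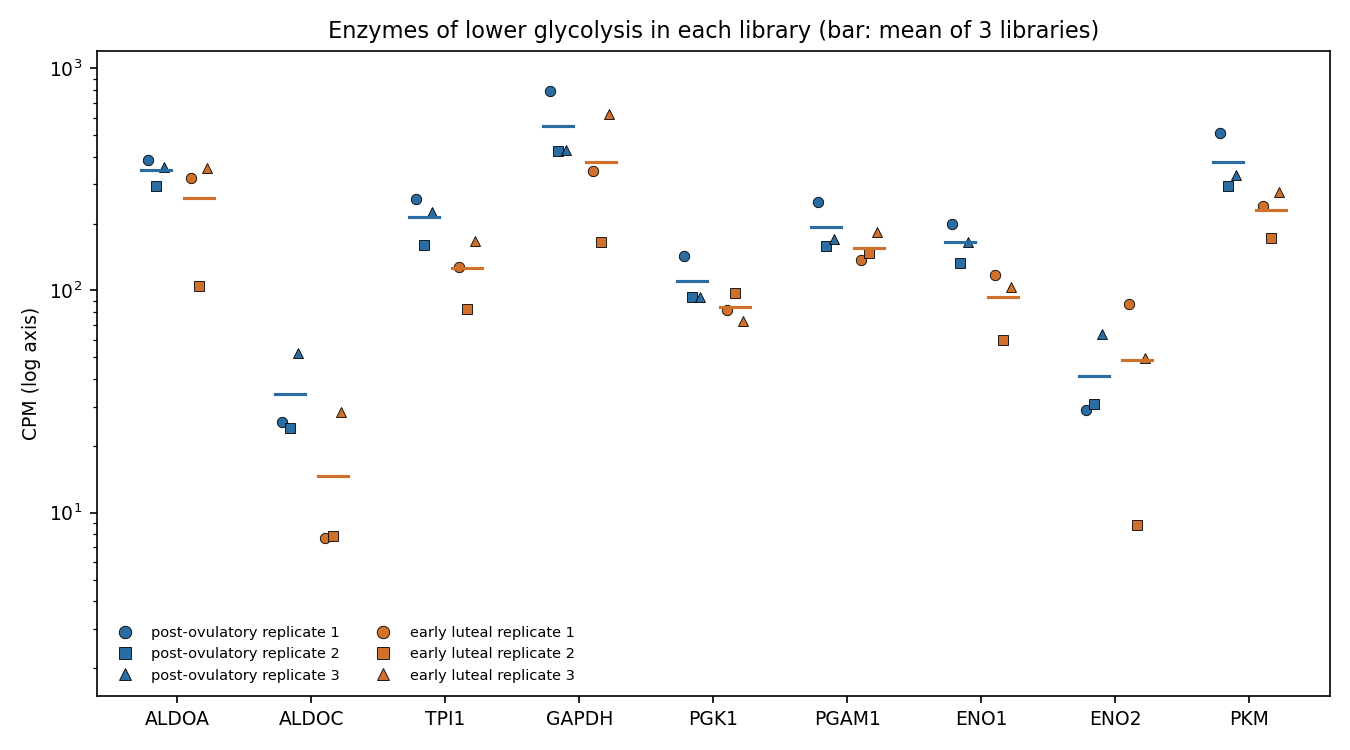
CPM of the 9 enzymes of lower glycolysis in each library on a log axis, with symbols for replicates, blue for post-ovulatory, orange for early luteal and a bar at the mean of 3 libraries. Early luteal replicate 2 (orange squares) is the lowest library for ALDOA, TPI1, GAPDH, ENO1, ENO2 and PKM, but not for PGK1 or PGAM1.

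At lactate dehydrogenase the stages overlapped, and 1 library stood out. LDHA, the form that favours lactate production, stood at 107, 88.4 and 85.1 CPM in post-ovulatory and 72.4, 293 and 68.0 CPM in early luteal replicates. Early luteal replicate 2 had by far the highest level and early luteal replicates 1 and 3 the lowest 2, so the log2 fold change of 0.62 ± 0.55 (SE) turned to -0.41 without early luteal replicate 2. LDHB, the form that favours lactate use, stood at 23.9, 48.5 and 69.9 against 46.8, 22.9 and 9.84 CPM and was lowest in early luteal replicate 3. RefSeq lists 2 entries under the symbol LDHB, on chromosome 5 over 20287 bases and on chromosome 2 over 1280 bases. The sources used here do not tie the counted identifier to either. How alike the 2 entries are, and whether reads of LDHB were split between them, was not tested.

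LDHA made up 81.7%, 64.6% and 54.9% of LDHA and LDHB counts in post-ovulatory replicates 1, 2 and 3 and 60.7%, 92.7% and 87.4% in early luteal replicates 1, 2 and 3. Each stage thus held libraries rich and poor in LDHA, while the widest exact 95% interval, 61.6% to 67.4% in post-ovulatory replicate 2, was narrow beside the spread. The mean shares were 67.1% ± 13.6 and 80.3% ± 17.1 (SD, n = 3), and the exact two-sided permutation test gave p = 0.3 (0.571 adjusted over 8 isozyme shares). With 3 libraries against 3 that test cannot give a p below 0.1, and the raw p of the other 7 shares lay between 0.2 and 0.9.

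**Figure D4:**
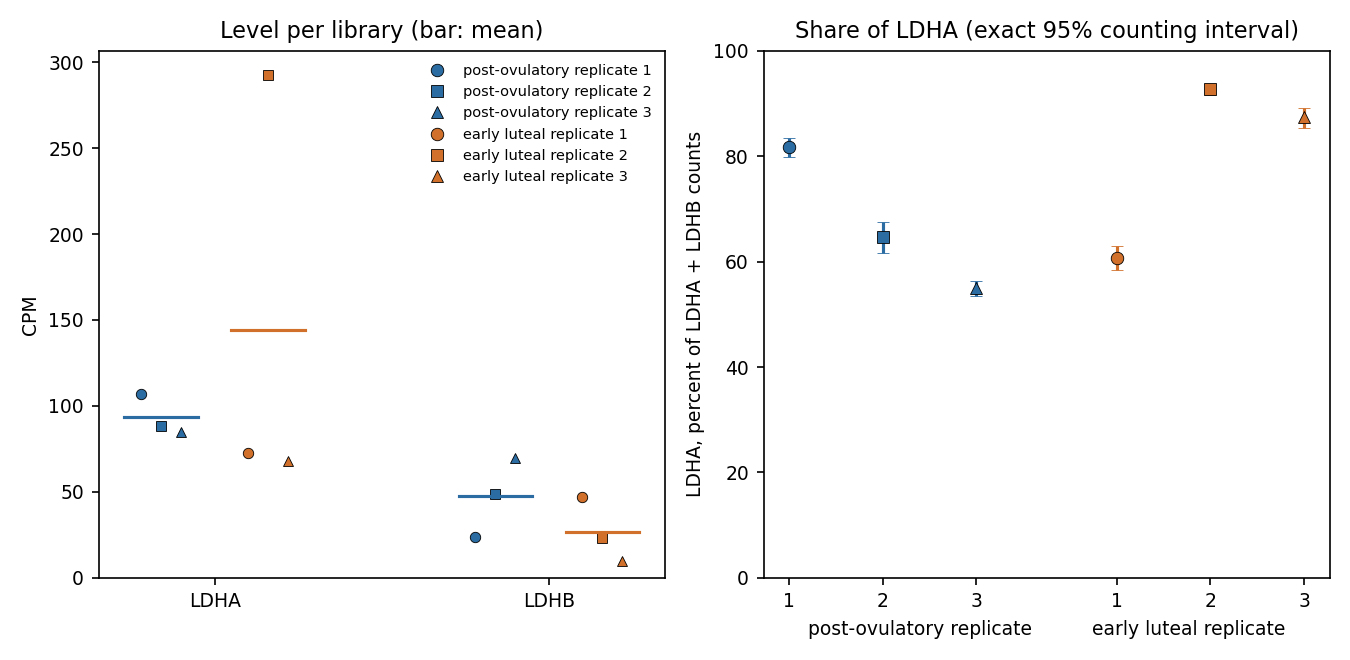
Left, CPM of LDHA and LDHB in each library, with a bar at the mean of 3 per stage and an axis from 0; right, LDHA as a percent of LDHA and LDHB counts in each library with its exact 95% interval, which covers counting error only. Early luteal replicate 2 stands alone at 92.7% LDHA, and the stages overlap.

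Lactate and pyruvate cross the cell membrane through SLC16A carriers. SLC16A7, a carrier with high affinity for pyruvate, stood at 4.91, 5.43 and 5.75 CPM in post-ovulatory and 6.63, 11.11 and 9.11 CPM in early luteal replicates, which rested on 66, 43 and 180 and on 103, 82 and 137 counts. All 3 early luteal libraries were higher, replicate 2 most (log2 fold change 0.73 ± 0.45, SE; edgeR, unadjusted p = 0.139). SLC16A3, the exporter of highly glycolytic cells, was low, with 32, 10 and 83 counts in the post-ovulatory libraries against 45, 0 and 88 in the early luteal ones. It was not detected in early luteal replicate 2, which allows up to 0.406 CPM there, and the library with the most LDHA thus had no count of this exporter. BSG, the chaperone of these carriers, had no row under its symbol and was not analysed here; EMB, which also escorts them, stood at 46.4 ± 14.8 against 70.8 ± 34.0 CPM (SD, n = 3).

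The pentose phosphate route branches off glucose 6-phosphate and supplies NADPH and ribose. PGD, the second dehydrogenase of the route, stood at 68.0, 51.9 and 51.0 CPM in post-ovulatory and 47.5, 12.6 and 40.0 CPM in early luteal replicates (log2 fold change -0.77 ± 0.45, SE; edgeR, unadjusted p = 0.128, adjusted p = 0.736). Every early luteal library was lower, early luteal replicate 2 by far. The 8 tested genes of the route outside the members were all 8 lower too, with a median log2 fold change of -0.71. Separate stages were found in 4 (50%, against 17.2% of all genes), and 1 had an unadjusted p under 0.05 (12.5%, against 7.11%). TKT, transketolase, was that 1, at 157, 69.8 and 92.9 against 53.3, 41.1 and 67.1 CPM (log2 fold change -0.98 ± 0.35, SE; edgeR, adjusted p = 0.680). PGLS stood at 33.2, 23.2 and 21.7 against 19.6, 9.48 and 17.6 CPM, and PRPS1, which makes the ribose donor of nucleotides, stood at 39.0, 23.1 and 17.9 against 15.8, 17.5 and 16.9 CPM. In PGD, TKT, PGLS and PRPS1 alike post-ovulatory replicate 1 was the highest library.

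With any library left out, 8 or 9 of the 9 genes were lower.

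Markers of dividing cells were also highest in post-ovulatory replicate 1. All 7 of their 7 tested genes were lower in early luteal tissue, 5 at an unadjusted p under 0.05 (71.4%, against 7.11% of all genes). The summed level was 643, 95.9 and 86.5 CPM in post-ovulatory and 81.2, 50.8 and 34.2 CPM in early luteal replicates. Stromal markers were lower in 6 of 7 tested genes, with summed levels of 1113 to 2353 against 676 to 995 CPM. The part of dividing and stromal cells in the lower glycolytic and pentose phosphate levels was not tested.

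Glycogen enzymes among the members did not separate the stages. PYGB and PYGL, the brain and liver forms of the phosphorylase that releases glucose from glycogen, stood at 84.7, 119 and 109 against 117, 67.9 and 173 CPM and at 138, 85.5 and 103 against 92.5, 126 and 113 CPM. GYS1, glycogen synthase, stood at 31.5, 30.6 and 44.3 against 38.8, 22.8 and 37.4 CPM. Among 18 other tested glycogen genes, 2 had an unadjusted p under 0.05 in edgeR, where 7.11% of all genes did, and both were higher. Separate stages were found in 4 of the 18, 3 higher and 1 lower (22.2%, against 17.2% of all genes). GYG1, glycogenin, the protein on which a glycogen chain is started, stood at 58.4, 64.3 and 44.4 CPM in post-ovulatory and 75.7, 169 and 208 CPM in early luteal replicates (log2 fold change 1.44 ± 0.39, SE; edgeR, unadjusted p = 0.00545, adjusted p = 0.632). PHKB, a subunit of the kinase that activates phosphorylase, was higher in every early luteal library too, at 48.1, 44.7 and 52.1 against 56.7, 73.3 and 60.2 CPM (edgeR, unadjusted p = 0.141). GAA, which digests glycogen in lysosomes, was lower in every one, at 11.2, 12.3 and 9.34 against 7.41, 1.63 and 8.38 CPM (edgeR, unadjusted p = 0.177). In GYG1 replicates 2 and 3 of the early luteal stage stood far above replicate 1, which was near the post-ovulatory libraries.

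Of the 144 further genes of glucose metabolism and its control that were listed by function, 115 were tested. In edgeR 0 had an adjusted p at or under 0.05. In DESeq2 2 of 131 did, ADM and IRS2, beside 177 of 29972 over all genes. At an unadjusted p under 0.05 in edgeR there were 14 (12.2%, against 7.11% of all genes), 11 higher and 3 lower. The stages were separate in 27 (23.5%, against 17.2% of all genes), 14 higher and 13 lower. Without post-ovulatory replicate 2 the count of 14 became 9 of 117, where 6.25% of all genes had such a p. It was 9 of 118 without post-ovulatory replicate 3 (4.98% of all genes) and 8 of 116 without early luteal replicate 3 (5.32%). Of 10 other glycolytic enzymes 9 were lower and 1 higher, with 0 at an unadjusted p under 0.05 in edgeR. HKDC1, a hexokinase-like enzyme, stood at 18.6, 11.6 and 15.8 against 11.3, 6.50 and 10.0 CPM (edgeR, unadjusted p = 0.113). ADPGK, which phosphorylates glucose with ADP, stood at 26.6, 22.2 and 24.3 against 21.5, 21.1 and 20.8 CPM (edgeR, unadjusted p = 0.491). Both were lower in every early luteal library, by a small margin between the nearest libraries. None of the 10 tested sugar transport genes separated the stages; TXNIP, which restrains glucose uptake and is induced by glucose, stood at 834, 1309.9 and 1294 against 1045, 1073 and 2157 CPM.

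**Figure D5:**
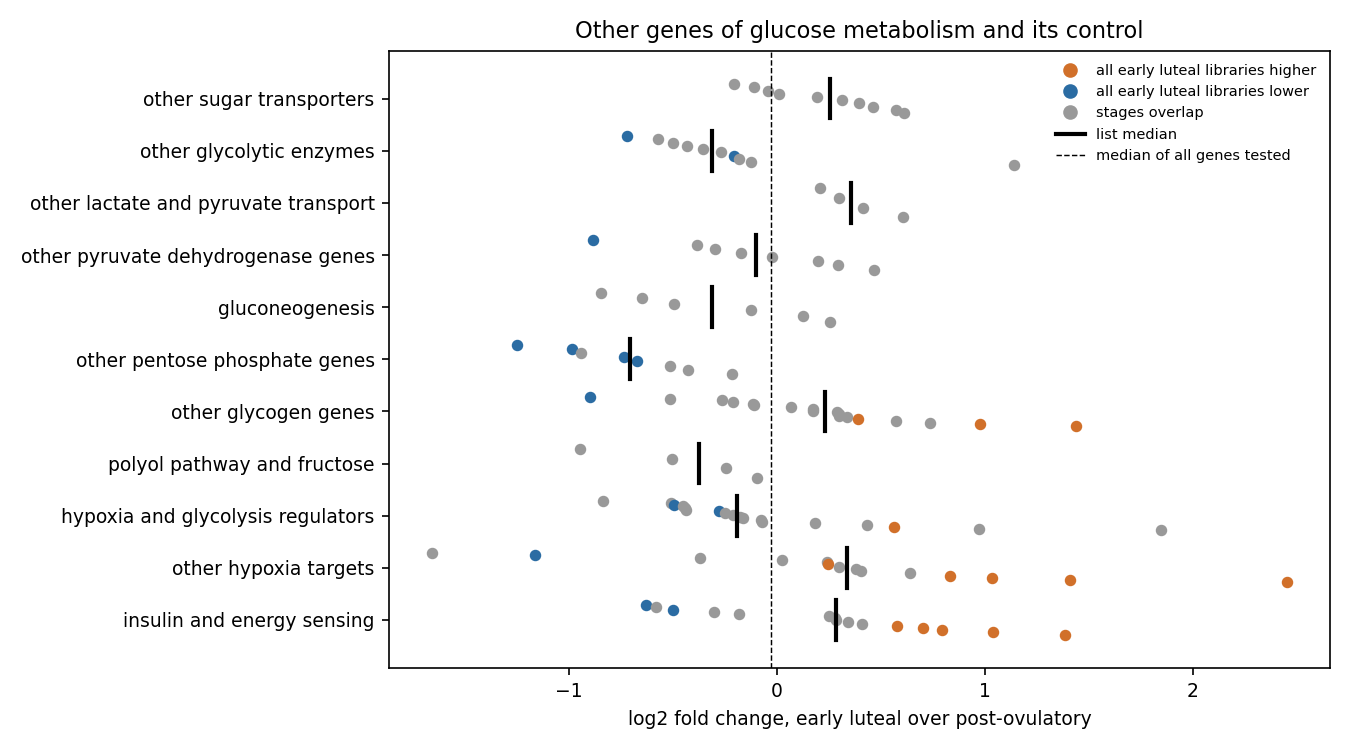
Log2 fold change, early luteal over post-ovulatory, of the 115 tested genes outside the members, 1 point per gene and 1 line per list, with the list median as a black bar and the median of all genes tested (-0.026) as a dashed line. All 8 points of the other pentose phosphate genes lie below 0, and ADM, at 2.45, is the highest point of the plot.

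Hypoxia-inducible factors drive many glycolytic genes, and 14 of their other targets were tested. Of these 11 were higher and 3 lower. At an unadjusted p under 0.05 in edgeR there were 5, 4 higher and 1 lower (35.7%, against 7.11% of all genes). The stages were separate in 6, 5 higher and 1 lower (42.9%, against 17.2% of all genes). ADM, the vasodilator adrenomedullin, stood at 9.68, 12.1 and 17.3 CPM in post-ovulatory and 32.1, 118 and 65.0 CPM in early luteal replicates (log2 fold change 2.45 ± 0.49, SE; edgeR, unadjusted p = 0.000954, adjusted p = 0.549), and DESeq2 called it (adjusted p = 0.00132). ADM lay far above its post-ovulatory range in early luteal replicates 2 and 3, and less far in replicate 1.

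MXI1, a MYC antagonist, stood at 26.7, 29.9 and 34.2 against 52.2, 76.0 and 58.0 CPM (edgeR, unadjusted p = 0.00436). ANKRD37 stood at 9.16, 13.8 and 15.5 against 31.1, 47.7 and 23.5 CPM (edgeR, unadjusted p = 0.00586). BHLHE40, a repressor tied to the clock, stood at 18.5, 21.0 and 26.5 against 39.1, 37.9 and 40.6 CPM (edgeR, unadjusted p = 0.0160). In these 3 genes every early luteal library was higher, while 2 other targets went the opposite way. VEGFA, the angiogenic factor, stood at 33.4, 45.0 and 43.2 against 30.3, 6.10 and 17.6 CPM, lower in every early luteal library (log2 fold change -1.16 ± 0.52, SE; edgeR, unadjusted p = 0.0529). CA12, a carbonic anhydrase of the cell surface, stood at 11.2, 20.1 and 37.95 against 14.6, 2.85 and 4.39 CPM and overlapped (edgeR, unadjusted p = 0.0433). Of members known as targets of these factors 10 are given here, a selection with log2 fold changes on both sides of 0. ENO1 -0.82, ALDOA -0.41, PGK1 -0.40 and SLC2A1 -0.28 lay below. PDK1 0.80, LDHA 0.62, HK2 0.60, SLC16A3 0.48, PFKFB3 0.41 and PFKFB4 0.26 lay above. Of these 10 genes ENO1 and PDK1 had an unadjusted p under 0.05 in edgeR, and LDHA, SLC16A3, PFKFB4 and SLC2A1 changed sign with a library left out. Taken by whole roles, all 4 upper glycolysis members and 8 of 9 lower glycolysis members were lower, and ENO2 was higher. Outside the 10, TPI1 lay at -0.77 (edgeR, unadjusted p = 0.0484). The factors themselves overlapped between the stages, HIF1A at 231, 124 and 159.7 against 129, 239 and 65.4 CPM and EPAS1 at 77.2, 167 and 89.2 against 88.4, 44.3 and 53.9 CPM. ARNT, their common partner, was lower in every early luteal library by a small margin, at 42.5, 39.7 and 39.0 against 37.6, 23.6 and 38.5 CPM (edgeR, unadjusted p = 0.358). So was the growth kinase gene MTOR, at 67.6, 55.4 and 52.6 against 51.7, 29.0 and 43.8 CPM (edgeR, unadjusted p = 0.125). EGLN3, an oxygen sensor that hypoxia-inducible factors induce, was higher in every early luteal library, at 11.4, 14.5 and 15.0 against 17.1, 22.1 and 21.4 CPM (edgeR, unadjusted p = 0.126). MYC, another driver of glycolytic genes, stood at 83.4, 113 and 96.0 against 89.2, 59.5 and 65.6 CPM, and PPARGC1A, a coactivator of mitochondrial and fasting genes, at 5.51, 7.07 and 6.17 against 5.09, 37.0 and 25.5 CPM, where early luteal replicate 1 lay with the post-ovulatory libraries (edgeR, unadjusted p = 0.0217).

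PDK4 is a textbook target of FOXO factors, which insulin signalling restrains. Among 15 tested genes of insulin and energy sensing 10 were higher and 5 lower. At an unadjusted p under 0.05 in edgeR there were 4, all higher (26.7%, against 7.11% of all genes). The stages were separate in 7, 5 higher and 2 lower (46.7%, against 17.2% of all genes). IRS2, the docking protein of the insulin receptor, stood at 23.8, 37.9 and 35.5 CPM in post-ovulatory and 81.1, 79.8 and 93.2 CPM in early luteal replicates (log2 fold change 1.39 ± 0.27, SE; edgeR, unadjusted p = 0.000785, adjusted p = 0.522; DESeq2, adjusted p = 0.00363). FOXO1 stood at 31.05, 43.2 and 31.7 against 47.7, 92.1 and 77.5 CPM (edgeR, unadjusted p = 0.0105) and FOXO3 at 74.8, 88.2 and 77.5 against 101, 141 and 117 CPM (edgeR, unadjusted p = 0.0431). SESN1, a stress-induced target of FOXO factors, stood at 18.3, 22.2 and 20.4 against 34.1, 36.04 and 28.9 CPM (edgeR, unadjusted p = 0.0353). The 2 lower genes with separate stages were AKT2, a kinase that carries the insulin signal, at 51.2, 59.0 and 51.5 against 44.0, 19.9 and 50.1 CPM (log2 fold change -0.50 ± 0.36, SE), and STK11, the kinase upstream of AMPK, at 75.2, 66.9 and 70.3 against 54.2, 30.6 and 52.5 CPM (log2 fold change -0.63 ± 0.29, SE; edgeR, unadjusted p = 0.0579). The part of these genes in the level of PDK4 was not tested.

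PDK4 is abundant in fat and muscle. The 6 adipocyte markers had a summed level of 3.71 to 12.9 CPM in post-ovulatory and 3.26 to 17.5 CPM in early luteal libraries. ADIPOQ, PLIN1, LEP and CIDEC had 13, 30, 1 and 3 counts over all 6 libraries. FABP4 had 12, 35 and 8 counts in the post-ovulatory libraries against 0, 0 and 2 in the early luteal ones, and LPL, the only marker that passed the filter, had 156, 12 and 91 against 261, 72 and 43 counts (log2 fold change 0.87 ± 0.87, SE) and overlapped. Smooth muscle markers were higher in 8 of 9 genes, with 0 at an unadjusted p under 0.05 in edgeR. Their summed level was 1655, 9549 and 12492 CPM in the early luteal replicates. Of 9 immediate early genes, induced when tissue is handled, 8 were higher, with summed levels of 344 to 953 in post-ovulatory and 463 to 1747 CPM in early luteal libraries. The part of fat, smooth muscle and immediate early expression in the levels of PDK4, ADM and IRS2 was not tested.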

How the data were processed

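RNA of ampulla tissue became stranded mRNA libraries (KAPA mRNA HyperPrep), sequenced as paired reads on a NextSeq2000, per the labels' protocols. Per the submitters' processing notes the tools were FastQC 0.11.4, Trim Galore and STAR, with Sscrofa11.1 as build; counter, strand setting and annotation: not given in the sources used here. The authors deposited raw counts for 35670 Ensembl genes in 6 libraries; a tab missing from the header made it necessary to read columns by place. Symbols were matched for 15623 identifiers, and positions come from RefSeq by symbol.

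Stages were compared with edgeR 4.0.16 in R 4.3.3 (TMM, filterByExpr, robust quasi-likelihood test, two-sided, Benjamini-Hochberg over 17920 genes); SE is the size of the log2 fold change divided by the root of F. DESeq2 1.42.0, limma 3.58.1, other scalings and filters, a replicate block and leaving out each library were alternatives. Isozyme shares are of counts, with no length correction. On simulated counts for this comparison, changed genes were drawn only from those above the median level of the 17920 genes. Of these, 0 of 50 with a 2-fold change and 30 of 50 with a 4-fold change were recovered. Of 17178 unchanged genes 5 were called. Recovery of genes at lower levels was not simulated.

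The members and lists were chosen with earlier results of these data known. Every member is given. Other genes are named at an unadjusted p under 0.05 or with separate stages, at most 4 a list by lowest p, plus HIF1A, EPAS1, TXNIP, MYC and BSG; VEGFA, CA12, AKT2, STK11, EMB and subunits named without values were chosen after their values were seen. Some genes that this rule would name are not reported here. In "a, b and c against d, e and f", post-ovulatory replicates 1, 2 and 3 come first, then early luteal replicates 1, 2 and 3.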

Additional observations from a re-analysis of the deposited data

How the results depend on the processing

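The log2 fold change kept its sign in 22 of 36 members under every alternative run, PDK4, PDK1, SLC2A12, SLC16A7, ENO1, TPI1, PKM, PFKP and PGD among them. Genes called over all genes numbered 0 of 17920 in edgeR and 8 of 30048 with no filter on low counts. They numbered 177 of 29972 in DESeq2 and 9 of 17920 in limma voom with sample quality weights. At an unadjusted p under 0.05 the 1275 genes (7.11%) became 2133 with no filter (7.1%) and 2251 in DESeq2 (7.51%), where more genes were tested. They became 2548 with sample quality weights (14.2%). With a library left out they numbered 603 (3.22%, without post-ovulatory replicate 1) to 2138 (11.5%, without early luteal replicate 1). DESeq2 called 1 of 36 members, PDK4, and 2 of 131 other pathway genes, ADM and IRS2, beside 177 of 29972 over all genes. Members at an unadjusted p under 0.05 numbered 3 with library totals alone (6.42% of all genes) and 1 to 5 with a library left out (3.22% to 11.5% of all genes). Members with separate stages numbered 8 to 17 with a library left out, where 24.3% to 33.9% of all genes were separate. Other pathway genes at an unadjusted p under 0.05 numbered 25 of 115 with sample quality weights, where 14.2% of all genes had such a p. With a library left out they numbered 8 to 17, where 3.22% to 11.5% of all genes did. No source says that the replicate numbers pair the libraries. Deviations of same-numbered libraries correlated at 0.052, -0.082 and 0.13 across genes, and those of different-numbered ones at -0.16 to 0.063. With 3 libraries a stage these values cannot decide whether the numbers pair libraries. With the replicate block 0 members passed and 6 had an unadjusted p under 0.05, where 5.82% of all genes did.

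The sign turned in some genes. With the replicate block the log2 fold change was -0.19 for ENO2, -0.075 for PDK2 and -0.29 for SLC16A3. By limma voom it was -0.027 for ENO2 and -0.53 for SLC16A3, and with no filter -0.043 for PYGL. With sample quality weights it was 0.040 for GAPDH, 0.15 for GPI, -0.24 for LDHA, 0.11 for SLC2A1 and 0.076 for SLC2A8. With each library left out it ran from -0.49 to 0.73 for ENO2, -0.27 to 0.093 for GPI, -0.23 to 0.10 for GYS1, -0.82 to 0.084 for HIF1A and -0.41 to 0.98 for LDHA. It ran from -0.36 to 0.17 for PDHA1, -0.48 to 0.64 for PDK2, -0.069 to 0.68 for PFKFB4, -0.18 to 0.47 for PYGB and -0.13 to 0.21 for PYGL. It ran from -0.49 to 1.03 for SLC16A3, -0.64 to 0.10 for SLC2A1, -0.012 to 0.16 for SLC5A1 and -0.13 to 0.51 for TXNIP. The cause was not tested. The search of promoters and proteins was not run because no sequence table was used.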
